A study of Mus musculus with 6 samples.

Results

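The genes that build the meiotic chromosome axis and carry out meiotic recombination were read in testes of mice with and without a DREAM transgene. The set holds 34 named genes, a list drawn up with earlier results of these data known. Of these, 33 had at least 1 probe set annotated to that gene alone, out of 18193 genes so represented on the arrays. The helicase gene Hfm1 had none and was not analysed here. The 33 genes carried 49 such probe sets, and each gene was read with the one of highest mean over all arrays unless another is named. H2afx is listed under its current symbol, H2ax.

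RNA came from freshly dissected testes of adult mice of a C57BL/6 x CBA hybrid background, 3 wild type and 3 carrying a constitutively active mutant of DREAM, with 1 Affymetrix whole-genome mouse array for each. DREAM, the product of Kcnip3, is a calcium-binding repressor of transcription that leaves DNA when calcium rises. The promoter that drives the transgene and the cells that express it are not given in the sources used here. The series title names gene expression and calcium mobilization in sperm cells as the subject. Values are log2 intensities, so a difference of 1 is a 2-fold change, and errors are SDs over 3 arrays.

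In meiotic prophase each chromosome is organised along a protein axis of cohesins and axial proteins, and homologous chromosomes are then joined along their length by the synaptonemal complex. Programmed double-strand breaks are made on the axis, resected and used to search the homologue, and a few of them mature into crossovers while a damage-signalling pathway watches over the process. In the testis these events take place in spermatocytes, which are 1 of several germ cell stages in the tissue. In whole testis, fewer spermatocytes and less of a transcript per spermatocyte cannot be told apart.

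The arrays read as testis. The germ cell lactate dehydrogenase Ldhc was between 13.55 and 13.62 on all 6, and the protamine gene Prm1 between 14.07 and 14.12. The level of Kcnip3 was 7.21 ± 0.11 in the wild-type and 7.27 ± 0.11 in the transgenic group (SD, n = 3). These groups overlapped, and since its probe sets are not known to match the transgene they check no label. Wild type replicate 2 stood apart from the other arrays, at 42.2 on the first principal component (38.9% of the variance) where the other 5 lay between -23.3 and 5.3. On the second component (27.2%) the wild-type arrays lay between -23.8 and -7.8 and the transgenic ones between 14.3 and 20.0. The difference between the 3' and 5' Gapdh control probe sets, which tracks RNA integrity, averaged 0.11 ± 0.05 over the wild-type and 0.27 ± 0.06 over the transgenic arrays, with no overlap (exact permutation test, two-sided, p = 0.1, the smallest that 3 against 3 can give). The same difference for beta-actin was 0.47 ± 0.05 and 0.50 ± 0.03 (exact p = 0.7). The differences of the meiotic genes are given below with all arrays, without wild type replicate 2 and with the Gapdh measure in the fit.

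DREAM binds DNA at downstream regulatory elements, whose core is GTCA, so the sequence before the start of 4 of the genes is shown here from RefSeq (GRCm38.p6), 250 bases each, 5' to 3' on the strand of the gene, in lower case with each GTCA of either strand in capitals. Brca2 and Hormad2 are shown because their groups did not overlap, Sycp1 because it had the second largest difference, and Trip13 because all of its probe sets read on the other side of 0. Brca2 lies on the plus strand at chr5:150522371-150522620 and holds 4 matches, of which 3 follow each other directly. Hormad2 lies on the minus strand at chr11:4441083-4441332 and Sycp1 on the minus strand at chr3:102936101-102936350, and both windows hold 0 matches. Trip13 lies on the minus strand at chr13:73937768-73938017 and holds 1.
Brca2: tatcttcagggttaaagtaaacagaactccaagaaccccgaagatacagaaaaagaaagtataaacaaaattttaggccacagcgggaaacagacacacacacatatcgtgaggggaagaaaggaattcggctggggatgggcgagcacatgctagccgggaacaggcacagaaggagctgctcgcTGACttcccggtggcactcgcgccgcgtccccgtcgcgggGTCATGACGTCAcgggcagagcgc
Hormad2: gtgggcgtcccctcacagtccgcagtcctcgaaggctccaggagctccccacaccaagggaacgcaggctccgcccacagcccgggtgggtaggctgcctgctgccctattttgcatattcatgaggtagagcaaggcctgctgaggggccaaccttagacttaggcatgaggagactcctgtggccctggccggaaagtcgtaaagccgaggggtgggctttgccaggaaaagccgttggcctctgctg
Sycp1: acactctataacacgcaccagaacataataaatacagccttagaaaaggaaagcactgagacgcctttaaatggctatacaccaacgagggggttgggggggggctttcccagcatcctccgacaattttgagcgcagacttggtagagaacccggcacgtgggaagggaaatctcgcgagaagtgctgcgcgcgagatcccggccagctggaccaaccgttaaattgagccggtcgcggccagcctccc
Trip13: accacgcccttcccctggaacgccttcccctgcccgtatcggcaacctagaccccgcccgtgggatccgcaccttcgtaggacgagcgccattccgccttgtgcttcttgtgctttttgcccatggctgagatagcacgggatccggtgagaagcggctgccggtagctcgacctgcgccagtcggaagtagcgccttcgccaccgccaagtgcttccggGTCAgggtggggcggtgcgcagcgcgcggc

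RefSeq promoter sequences were matched for 29 of the 34 genes, in 34 windows, and not for Spo11, Meiob, Tex15, Tex11 and H2ax. GTCA was found on either strand in 24 of the 34 windows and in 80.2% of all 32851 windows of the same length. The longer form, GTCA followed by 2 purines and a G, was found in 8 windows of the set (Hormad1 in both of its windows, Hfm1, Syce1, Syce2, Trip13, Prdm9 and Msh5) and in 14.2% of all. The cyclic AMP response element TGACGTCA, which contains GTCA, was in 2 windows, those of Brca2 and Rad51c, and in 1.55% of all. TCCCGC, a core of E2F sites, was in 17 of the 34 windows and in 16.9% of all, and AACNG, a core of MYB sites, was in 29 and in 74.2% of all. Several genes contribute 2 windows, and windows of all genes include many transcripts that code for no protein. A match is a string of letters and no evidence of binding.

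None of the 33 meiotic genes differed between transgenic and wild-type testis at a limma adjusted p under 0.05, where 0.444% of all 45037 probe sets did (0.616% of the 18193 genes). The smallest adjusted p among them was 0.303, that of Meiob. The differences were small and mostly on the lower side of 0 in transgenic testis: 28 of the 33 genes read below 0, where 43.2% of all genes did, and 5 above it, where 56.8% did, and their median was -0.09 against 0.02 over all genes. Before adjustment 6 had a limma p under 0.05, all of them lower (Meiob, Sycp1, Spo11, Tex15, Brca2 and Hormad2), where 3.3% of all genes were. Of these, Meiob, Spo11, Brca2 and Hormad2 had groups that did not overlap, where 5.65% of all genes were lower without overlap. None was higher at that p, where 4.18% of all genes were, and none was higher without overlap, where 6.83% were. The genes were grouped below by role.

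**Figure D1:**
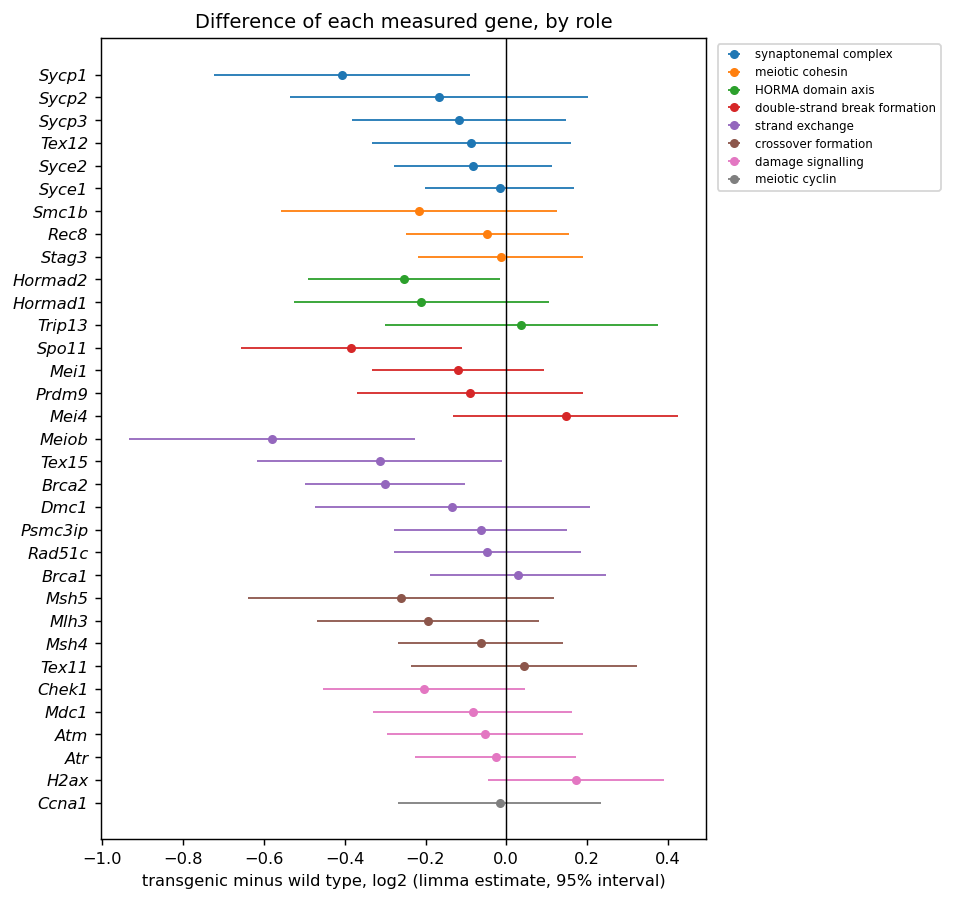
Transgenic minus wild type difference (log2, x axis) of each of the 33 measured genes (y axis), coloured by role, with the limma estimate as a point and its 95% interval as a line. 28 points lie left of 0, and the intervals of 6 genes (Meiob, Sycp1, Spo11, Tex15, Brca2 and Hormad2) lie wholly left of it before any adjustment for the number of tests.

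Among genes of the synaptonemal complex, all 6 read below 0, with differences from -0.41 to -0.02 and a median of -0.10. Sycp1 encodes the transverse filament that bridges the paired axes. It read 9.70, 9.20 and 9.40 on the wild-type arrays and 8.87, 9.20 and 9.01 on the transgenic ones (log2, replicates 1 to 3). The groups met at 9.20, a value that wild type replicate 2 shared with transgenic replicate 2. The difference was -0.41 (SE 0.14, 95% interval -0.72 to -0.09, limma adjusted p = 0.541). Sycp2, a component of the lateral element, read 10.40, 9.73 and 10.07 in wild type and 9.77, 10.08 and 9.85 in transgenic testis. Its lowest value was that of wild type replicate 2, and the difference was -0.17 (SE 0.16, adjusted p = 0.95). Sycp3, the partner of Sycp2 in that element and a standard marker of spermatocytes, read 10.25, 10.32 and 10.55 in wild type and 10.28, 10.40 and 10.09 in transgenic testis. These groups overlapped, with a difference of -0.12 (SE 0.12, 95% interval -0.38 to 0.15). The central element genes varied least. Syce1 lay between 12.01 and 12.06 on all 6 arrays, with a difference of -0.02 (95% interval -0.20 to 0.17). Syce2 read -0.08 (95% interval -0.28 to 0.11) and Tex12, which forms a fibre with it, -0.09 (95% interval -0.33 to 0.16).

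The 3 genes of meiotic cohesin, the ring complex that holds sister chromatids and founds the axis, also read below 0, and no group was separate from the other. Smc1b, its meiosis-specific SMC subunit, read 10.41, 9.84 and 10.04 in wild type and 9.72, 10.06 and 9.86 in transgenic testis. Wild type replicate 1 was the highest array and transgenic replicate 1 the lowest, and the difference was -0.22 (SE 0.15, adjusted p = 0.908). Rec8, the kleisin that is cut to release sister chromatids, read -0.05 (95% interval -0.25 to 0.15). Stag3, the meiotic STAG subunit, lay between 11.07 and 11.24 over all arrays, with a difference of -0.01 (95% interval -0.22 to 0.19).

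The axis proteins with a HORMA domain mark chromosome stretches that are not yet paired. Hormad2 read 7.05, 7.29 and 7.27 in wild type and 7.00, 6.82 and 7.03 in transgenic testis. The groups were apart by only 0.02, the gap between wild type replicate 1 and transgenic replicate 3, and the difference was -0.25 (SE 0.11, adjusted p = 0.715). Hormad1 read 8.26, 8.67 and 8.38 against 8.40, 8.29 and 7.99, with overlap and a difference of -0.21 (SE 0.14, adjusted p = 0.898). Trip13, the ATPase that strips both HORMA proteins from paired axes, was not on the lower side. Its 3 probe sets read 0.04, 0.14 and 0.08, with a smallest adjusted p of 0.915.

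Of the 4 genes for making double-strand breaks, Spo11 had the largest difference. Spo11 encodes the enzyme that cuts the DNA. It read 9.75, 9.93 and 9.90 in wild type and 9.40, 9.31 and 9.72 in transgenic testis. No transgenic array reached a wild-type one, but transgenic replicate 3 came within 0.03 of wild type replicate 1. The intensity was 1.30-fold higher in wild type (difference -0.38, SE 0.12, 95% interval -0.66 to -0.11, adjusted p = 0.451). Mei1, needed for break formation, lay between 5.69 and 5.97 over all arrays and read -0.12 (adjusted p = 0.929). Prdm9, the histone methyltransferase that sets where breaks are made, read 6.44, 6.31 and 6.34 against 6.31, 6.49 and 6.02, a difference of -0.09 (SE 0.12). Mei4, a partner in break formation, read 0.15 (SE 0.12, adjusted p = 0.933), at levels between 3.37 and 3.83, with no detection call to say whether these lie above background.

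**Figure D2:**
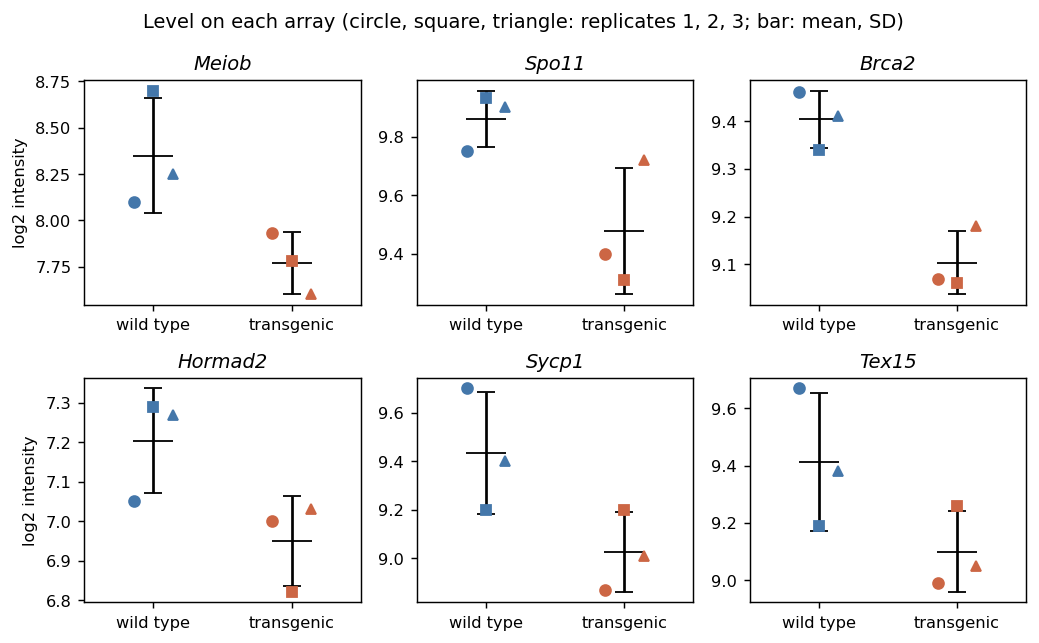
Log2 intensity (y axis, a separate range in each panel) of the 6 genes with an unadjusted limma p under 0.05, on each wild-type and transgenic array, with circles, squares and triangles for replicates 1, 2 and 3, and the mean and SD as black bars. Meiob, Spo11, Brca2 and Hormad2 show no overlap between the groups, while in Sycp1 and Tex15 wild type replicate 2 meets or lies inside the transgenic range.

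The strand exchange group held the largest difference of the set. Meiob, a single-strand DNA-binding protein of meiosis that works with RPA, read 8.10, 8.70 and 8.25 in wild type and 7.93, 7.78 and 7.60 in transgenic testis. All transgenic arrays were below all wild-type ones, and the wild-type group was spread by the high value of replicate 2. The mean levels were 8.35 ± 0.31 and 7.77 ± 0.17, 1.49-fold higher in wild type (difference -0.58, SE 0.16, 95% interval -0.94 to -0.23, adjusted p = 0.303). Meiob passed in 1 alternative fit, with array weights (-0.50, limma adjusted p = 0.0374), in which wild type replicate 3 weighed 4.70 and replicate 2 weighed 0.33. In that fit 1058 of all 45037 probe sets passed, against 200 with equal weights. Over all the alternative fits run, the adjusted p of Meiob went from 0.0374 to 0.948. Brca2, which loads recombinases onto single-stranded DNA, read 9.46, 9.34 and 9.41 in wild type and 9.07, 9.06 and 9.18 in transgenic testis. Both groups were tight, and the gap between them, 0.16, was close to that of Meiob, 0.17. The difference was -0.30 (SE 0.09, 95% interval -0.50 to -0.10, adjusted p = 0.374). Tex15, a germ cell gene needed for recombinases to load onto breaks, read 9.67, 9.19 and 9.38 against 8.99, 9.26 and 9.05. Wild type replicate 2 lay inside the transgenic range, and the difference was -0.31 (SE 0.13, adjusted p = 0.726).

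The recombinase genes themselves differed less. Dmc1, the meiosis-specific recombinase, read 6.59, 7.13 and 6.63 in wild type and 6.81, 6.55 and 6.59 in transgenic testis. Wild type replicate 2 was the highest array, and the difference was -0.13 (SE 0.15, adjusted p = 0.962), with 0.02 from its other probe set. Psmc3ip, a cofactor of Dmc1, read -0.06 and -0.08 with its 2 probe sets, and Rad51c, a gene of homologous recombination repair, -0.05 and 0.02. Brca1, of the same repair pathway as Brca2, had no single sign, with 0.03, -0.14, -0.24 and 0.14 from its 4 probe sets (smallest adjusted p 0.836).

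Crossover genes read on both sides of 0, with a median of -0.13 over the 4 measured. Msh4 and Msh5 pair to form a clamp that stabilises crossover intermediates. Msh5 read 6.85, 7.60 and 7.14 against 6.89, 7.02 and 6.90, a difference of -0.26 (SE 0.17, adjusted p = 0.889). Its other probe set read -0.30 (SE 0.12, adjusted p = 0.713). Neither probe set of Msh5 separated the groups. Msh4 lay between 8.16 and 8.36 and read -0.06 (95% interval -0.27 to 0.14). Mlh3, of the nuclease that resolves crossovers, read -0.19 (SE 0.12, adjusted p = 0.877), and the X-linked Tex11 read 0.04 (SE 0.12).

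The damage-signalling genes, which are also used by dividing cells outside meiosis, had a median of -0.05. H2ax, the histone variant phosphorylated around breaks and over the sex chromosomes, read 10.03, 10.25 and 10.16 in wild type and 10.40, 10.32 and 10.24 in transgenic testis. The groups overlapped by 0.01 only, and the difference of 0.17 (SE 0.10, adjusted p = 0.84) was the highest of the 33. Atm and Atr, the kinases that phosphorylate it, read -0.05 and -0.03 with their brightest probe sets. Mdc1, the adaptor that spreads that mark, read -0.08 (SE 0.11). Chek1, a kinase downstream of Atr, read -0.20 (SE 0.11, adjusted p = 0.833), and 4 of its 5 probe sets were below 0. One of the dimmer ones, at 4.51 ± 0.01 and 4.33 ± 0.04, had separate groups (difference -0.18, adjusted p = 0.761). The meiotic cyclin Ccna1, needed to leave meiotic prophase, read 9.65, 9.87 and 9.82 against 9.91, 9.59 and 9.79, a difference of -0.02 (95% interval -0.27 to 0.23).

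Of the 33 genes, 9 had more than 1 probe set, 25 in all. In 5 of these genes all probe sets had 1 sign, below 0 in Atm, Atr, Msh5 and Psmc3ip and above 0 in Trip13, and in 4 (Brca1, Chek1, Dmc1 and Rad51c) both signs occurred. Over all 49 probe sets, 38 were below 0 and 0 passed. There were 7 with a limma p under 0.05 before adjustment, all lower, where 2.94% of all probe sets were, and 5 were lower without overlap, where 4.95% of all probe sets were. The differences of Meiob, Sycp1, Spo11, Tex15, Brca2 and Hormad2 each rest on 1 probe set.

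The same view was taken of 88 other genes of the meiotic axis and recombination, of which 68 were measured. They did not share the direction of the 33: 34 read below 0 and 34 above, with a median of -0.01, and 0 passed (limma adjusted p under 0.05), with 3 higher and 2 lower at an unadjusted p under 0.05. Over all genes 4.18% were higher and 3.3% lower at that p, and 43.2% read below 0. Of the 15 genes for the axis and telomere attachment, 12 were below 0, with a median of -0.10. Terb2 and Terb1 tie telomeres to the nuclear envelope as partners in 1 complex. Terb2 read 7.28, 7.30 and 7.27 in wild type and 7.76, 7.51 and 7.70 in transgenic testis, higher on every transgenic array (difference 0.37, SE 0.10, adjusted p = 0.246). With array weights, the fit in which 1058 of all 45037 probe sets passed, its limma adjusted p was 0.0299. Terb1 read 8.76, 8.89 and 8.70 against 8.62, 8.63 and 8.39, lower on every transgenic array (difference -0.24, SE 0.10, adjusted p = 0.737). The partners thus lay on opposite sides of 0, and neither passed with equal weights. Meikin, a meiotic kinetochore regulator, read -0.32 (SE 0.12, adjusted p = 0.62).

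The other sublists read as follows. Of the 7 genes for break formation and resection, 6 were above 0 (median 0.16), led in p by Morc2b (0.16, adjusted p = 0.871) and the nuclease Exo1 (0.26, adjusted p = 0.89). Of the 18 for recombinase loading, 9 were below 0, with Hsf2bp, a partner of Brca2, at 0.21 (SE 0.09, adjusted p = 0.713) and the helicase Blm at -0.17 (adjusted p = 0.823). Of the 8 for crossovers, 4 were below 0, with Mus81 at -0.10 and Pms2 at 0.08 (adjusted p = 0.962 and 0.971). Of the 13 for checkpoint and sex body, 3 were below 0, with Rad9b at 0.20 and Rad17 at -0.15 (adjusted p = 0.732 and 0.867). Of the 7 for meiotic entry, 5 were below 0, with Dazl at -0.11 and Meioc at 0.12 (adjusted p = 0.942 and 0.961).

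**Figure D3:**
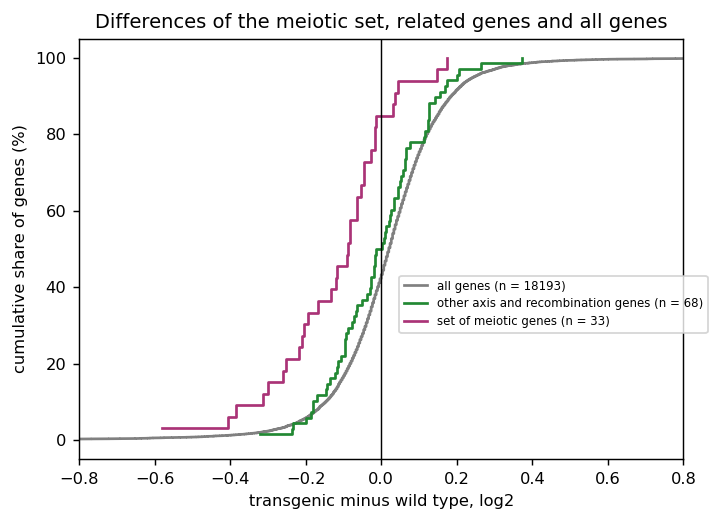
Cumulative share of genes (y axis, percent) by transgenic minus wild type difference (x axis, log2), for the 33 meiotic genes, the 68 other axis and recombination genes and all 18193 genes, each at its brightest probe set. At 0 the curve of the 33 stands at 84.8%, that of the 68 others at 50% and that of all genes at 43.2%.

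Markers of the cell types in the tissue were read beside these genes. The 33 meiotic genes summed to between 14.69 and 14.70 (log2 of the summed intensity) on the wild-type arrays and between 14.57 and 14.63 on the transgenic ones. Such a sum follows the brightest genes of a list, such as Syce1 among the 33 and Ldhc among the spermatocyte markers, and says little of the dim ones. The 9 spermatocyte markers, which share Sycp3 with the set, overlapped, at 14.67 to 14.74 and 14.68 to 14.73, with 6 of 9 below 0 and a median of -0.02 (Tex101 -0.20 and Piwil1 -0.10, adjusted p = 0.743 and 0.932). Summed levels of spermatogonial (12 genes, 11.42 to 11.68 and 11.46 to 11.65), round spermatid (12 genes, 14.74 to 14.78 and 14.71 to 14.80) and elongating spermatid markers (12 genes, 16.88 to 16.92 in both) overlapped too. So did those of Sertoli (12 genes, 14.06 to 14.11 and 14.03 to 14.09), peritubular myoid (7 genes, 11.92 to 11.98 and 11.87 to 12.06) and erythroid markers (3 genes, 8.23 to 8.44 and 8.23 to 8.36). Leydig cell markers were above 0 in 7 of 8 genes, at 13.18 to 13.36 in wild type and 13.56 to 13.68 in transgenic testis. Only 1 of them, the steroid enzyme gene Hsd3b1, passed (1.48, limma adjusted p = 0.00109). The differences of the 8 ran from -0.06 to 1.48, some of them close to 0. Of the 8, 4 were higher at an unadjusted limma p under 0.05, where 4.18% of all genes were. Macrophage markers were above 0 in 9 of 9 genes, at 10.08 to 10.24 and 10.28 to 10.41. Epididymal markers were above 0 in 7 of 8, at 10.84 to 11.06 and 11.61 to 12.03. The lipocalin gene Lcn2 rose (0.98, limma adjusted p = 0.0172) and was the brightest of them, at means of 10.68 and 11.66. No other epididymal marker had a group mean above 6.77. Those above 0 differed by 0.04 to 0.18, and Rnase10 was lower on every transgenic array (-0.60, limma adjusted p = 0.0647). For Lcn2 the limma adjusted p was 0.0634 when wild type replicate 3 was left out, 0.118 when transgenic replicate 1 was, and 0.101 when transgenic replicate 2 was, and it was 0.148 with the Gapdh measure in the fit (difference 1.36). Endothelial markers were above 0 in 8 of 9 genes, but their summed levels overlapped slightly, at 9.314 to 9.441 and 9.435 to 9.478. The arrays give no value of 0 for any marker, and the part of these cell types in the lower meiotic readings was not tested.

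How the meiotic genes varied from array to array was the other main feature of the set. Wild type replicate 2 was the highest of the 6 arrays for 16 of the 33 genes, where it was for 25.4% of all genes, and the lowest for 1, Sycp2, where it was for 23.7% of all. It lay above the gene's own mean in 26 of 33 genes, with a median deviation of 0.10, against 0.05 for wild type replicate 3 and -0.03 for wild type replicate 1. The transgenic arrays had median deviations of -0.04, -0.03 and -0.07. By this median alone, wild type replicate 1 was level with transgenic replicates 1 and 2, and wild type replicates 2 and 3 were above. Over all genes the median deviation was -0.02 for wild type replicate 1 and 0.01 and 0.003 for transgenic replicates 1 and 2. By summed intensity of the 33 genes, wild type replicate 1 (14.69) lay with wild type replicates 2 and 3 (14.70 and 14.69). The transgenic arrays were below them (14.60, 14.63 and 14.57). Sycp1, Sycp2, Smc1b, Tex15 and Psmc3ip had a profile of their own. In these 5 genes wild type replicate 1 was above replicate 3 and replicate 3 above replicate 2, and transgenic replicate 2 was above replicate 3 and replicate 3 above replicate 1, an order found in 4.62% of all genes. The genes were picked out after their values were seen.

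**Figure D4:**
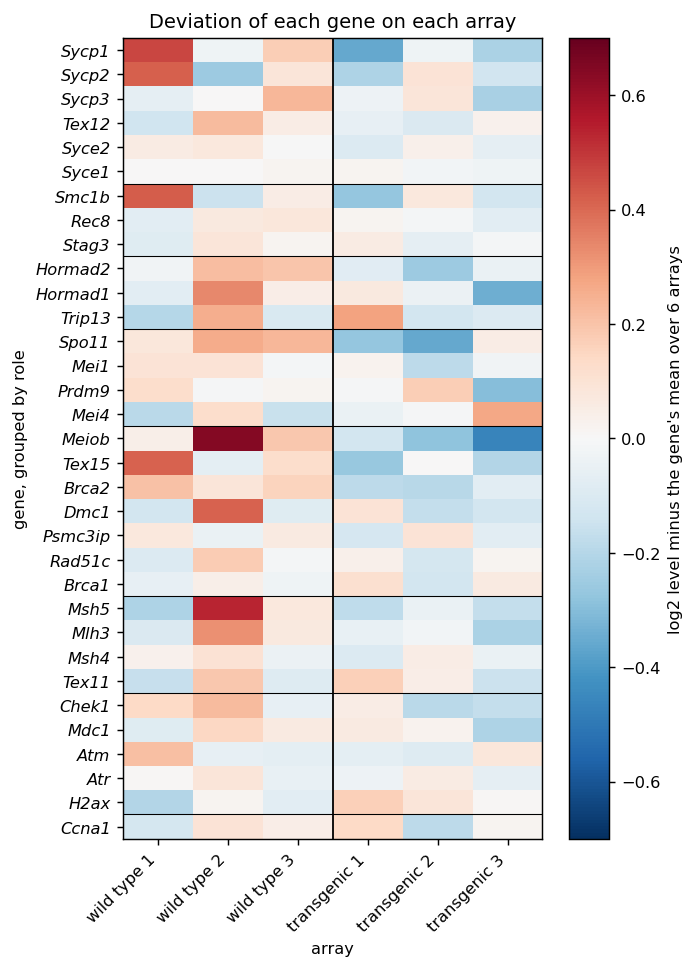
Deviation of each gene's log2 level from its own mean over 6 arrays (colour), for the 33 genes (rows, grouped by role) on the 3 wild-type and 3 transgenic arrays (columns). Wild type replicate 2 is the darkest red column for 16 genes, while Sycp1, Sycp2, Smc1b and Tex15 are reddest on wild type replicate 1 and, but for Sycp2, bluest on transgenic replicate 1.

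Without wild type replicate 2, 22 of the 33 genes were below 0 (42.9% of all genes), the median was -0.07, and 0 passed (limma), with 7 lower and 1 higher at an unadjusted p under 0.05, where 5.22% and 7.84% of all genes were in that fit. Meiob read -0.41 (adjusted p = 0.187) and Msh5 -0.06, while Sycp1 read -0.52 (adjusted p = 0.119), Tex15 -0.43 (adjusted p = 0.187), Sycp2 -0.34 and Smc1b -0.35. Leaving this array out therefore made the differences of the last 4 larger and that of Meiob smaller. Those 4 genes were highest on wild type replicate 1. With that array left out instead, Sycp1 read -0.27, Tex15 -0.185, Smc1b -0.06 and Sycp2 -0.0. Spo11 and Brca2 hardly moved without wild type replicate 2, at -0.35 and -0.33. With wild type replicate 1 left out, Spo11 read -0.44.

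With the Gapdh difference of each array in the fit, the direction of the set was not kept: 12 of 33 genes were below 0, where 46.2% of all genes were, and the median was 0.07, against 0.03 over all genes. The difference of Meiob went from -0.58 to 0.06 (SE 0.20, 95% interval -0.40 to 0.51, adjusted p = 0.938) and that of Hormad1 from -0.21 to 0.37. Sycp1 went to -0.81 (SE 0.24, adjusted p = 0.355), Smc1b to -0.66, Tex15 to -0.65, Sycp2 to -0.63, Spo11 to -0.53 and Brca2 to -0.47, all farther below 0, and Trip13 (0.60) and Tex11 (0.52) farther above. Because the measure was higher on every transgenic array than on any wild-type one, the fit separates it poorly from genotype, and the SEs were a median of 1.86 times as large. None of the 33 passed (limma), with 4 lower and 3 higher at an unadjusted p under 0.05, where 3.70% and 8.16% of all genes were.

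**Figure D5:**
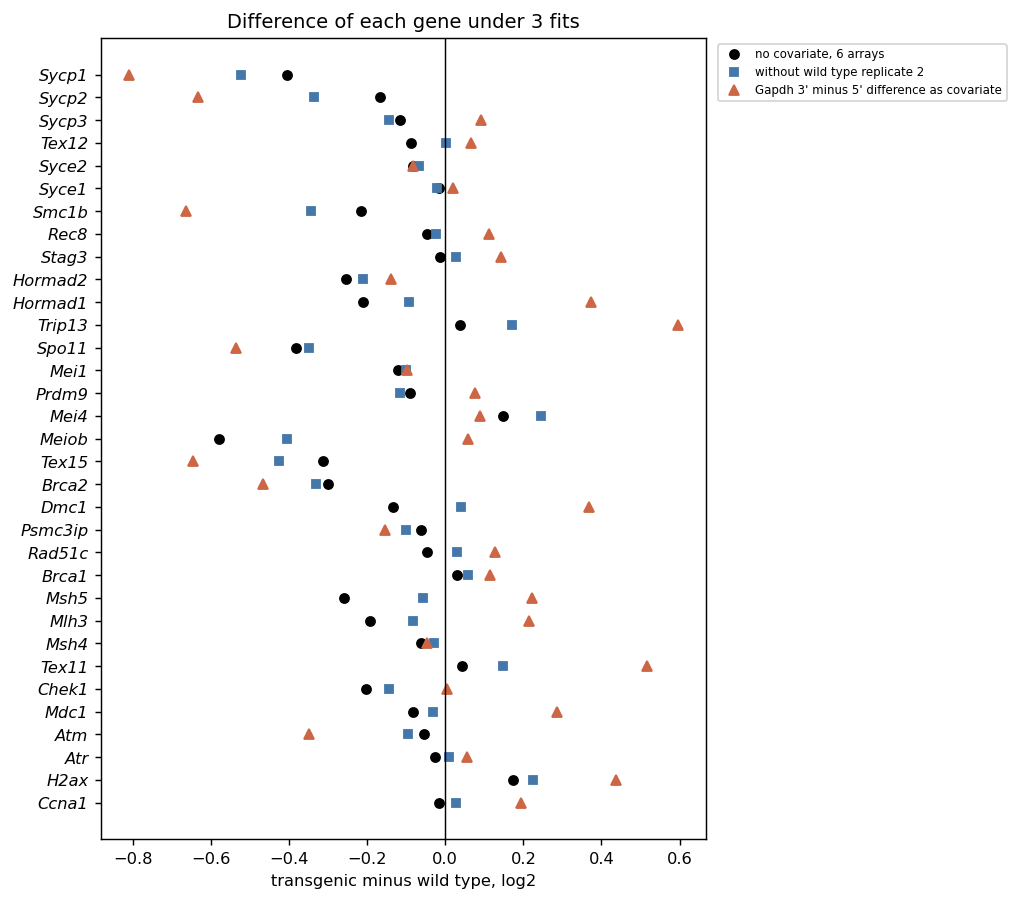
Transgenic minus wild type difference (x axis, log2) of each of the 33 genes (y axis) from the fit of all 6 arrays (black circles), the fit without wild type replicate 2 (blue squares) and the fit that holds the Gapdh measure as a further term (orange triangles). Sycp1, Sycp2, Smc1b, Tex15, Spo11 and Brca2 stay left of 0 in all 3, and Meiob is left of 0 in the first 2 only.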

How the data were processed

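The deposited values are log2 intensities of probe sets, made by the authors with RMA in the affy package per the submitters' processing notes, which give no version or parameters. They hold no detection call, and RMA hides any shift shared by all transcripts. Of 45101 probe sets, 64 controls were left out and 45037 tested with no filter. Genes come from the platform annotation (34945 probe sets with 1 gene, 932 with several, 9160 with none here), with symbols from RefSeq GRCm38.p6 (34741 matched).

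The transgenic group was set against wild type with limma 3.58.1 (R 4.3.3, lmFit then eBayes, two-sided), adjusted by Benjamini-Hochberg over all 45037 probe sets and a threshold of 0.05. Precision is limited by 3 arrays a group, biological replicates per the labels. No 2 arrays held the same values. The meiotic genes and all lists were chosen with earlier results of these data known, so lists get counts and medians and no test. All 33 measured genes were named. In other axis and recombination lists the genes named are those past the threshold or else the 2 of smallest p, and in cell lists at most 2. Ldhc, Prm1 and Kcnip3 were named in addition, and so was Terb1, the partner of Terb2, chosen after its values were seen. Alternatives were a filter on the lowest 40%, 2 further normalizations, other variance priors, array weights, the replicate block, other probe set choices, the Gapdh covariate and leaving out each array.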

Additional observations from a re-analysis of the deposited data

How the results depend on the processing

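Over the 33 genes and 15 alternatives, 490 differences were recomputed. Of these 451 kept their direction and their side of the threshold, 38 turned their sign and 1 newly passed, Meiob with array weights (-0.50). The cause was not tested. The number of genes among the 33 past the threshold was 0 in every alternative but array weights (1), and that of the 68 other axis and recombination genes was 0 but for array weights (1, Terb2). Leaving out 1 array gave 0 for both in all 6 cases. The median of the 33 stayed between -0.12 and -0.07 in the alternatives other than the Gapdh covariate, where it was 0.067. The count of probe sets past the threshold, 200 with equal weights, was 306 with the trended and robust prior, 1058 with array weights and 18 with the Gapdh covariate, and 70 to 429 with 1 array left out. With the replicate number as a block it was 117. The block changed no call among the 33 (smallest adjusted p 0.413), and same-numbered arrays did not deviate together (correlations -0.32, -0.07 and -0.01), so the numbers were not taken to pair the samples.

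With the Gapdh covariate 16 genes turned from below to above 0: Sycp3 (0.092), Syce1 (0.020), Tex12 (0.067), Rec8 (0.11), Stag3 (0.14), Hormad1 (0.37), Prdm9 (0.077), Dmc1 (0.37), Meiob (0.057), Rad51c (0.13), Msh5 (0.22), Mlh3 (0.21), Atr (0.056), Mdc1 (0.29), Chek1 (0.0053) and Ccna1 (0.19). With array weights Atm and Atr turned to 0.016 and 0.022, and with averaged probe sets Brca1 turned to -0.053. With 1 array left out the range crossed 0 for Tex12 (-0.18 to 0.0017), Stag3 (-0.058 to 0.027), Trip13 (-0.10 to 0.17), Prdm9 (-0.20 to 0.037), Dmc1 (-0.23 to 0.04), Rad51c (-0.11 to 0.03), Brca1 (-0.018 to 0.10), Tex11 (-0.03 to 0.15), Atm (-0.11 to 0.038), Atr (-0.062 to 0.01), Mdc1 (-0.15 to 0.0033) and Ccna1 (-0.09 to 0.07). In all of them the difference with all arrays was at most 0.13 in size. In 13 genes, Sycp1, Spo11, Brca2, Tex15, Smc1b and Hormad2 among them, no alternative in which they were read turned the sign. Spo11 and Brca2 were read in 14 of the 15 alternatives. Their only probe sets may match several transcripts, and 1 alternative left such probe sets out. The 13 include Sycp2, whose difference was -0.0 without wild type replicate 1. Without a signal over background per probe set, low levels such as those of Mei4 cannot be told from none.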
